A study of Mus musculus with 8 samples.

Results

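*Slc12a2*, the gene of the sodium-potassium-chloride cotransporter NKCC1, was examined together with its activating kinases and with epithelial ion and water channels in sorted mouse intestinal stem cells. The set held 9 genes of the 53801 in the count table: *Slc12a2*, the kinase genes *Stk39*, *Oxsr1* and *Wnk1*, the chloride channel gene *Cftr*, the potassium channel genes *Kcnq1* and *Kcne3*, the water channel gene *Aqp4* and the sodium pump subunit gene *Atp1b1*. They were picked by name, with the results of the genotype comparison below already known, so their differences between genotypes are a description of the set and not evidence about it. Messenger RNA was sequenced from 8 libraries, each made from Lgr5-GFP+ cells of 1 mouse, 4 labelled beta-cateninGOF; Mll1-/- (J_7075, J_7096, J_7135 and J_7136) and 4 labelled beta-cateninGOF; Mll1+/- (J_7079, J_7100, J_7134 and J_7139). The cells of both groups carried Lgr5-EGFP-IRES-CreERT2, which expresses a tamoxifen-inducible Cre in Lgr5+ cells, and a β-catenin allele that loses its exon 3 on recombination and then yields a stabilized protein. Mll1, a histone H3 lysine 4 methyltransferase encoded by *Kmt2a*, was floxed on 1 allele in Mll1+/- mice and on both in Mll1-/- mice. Tamoxifen (50 mg/kg on 3 days) was given to mice 4 to 6 weeks old, and cells were taken after 10 days by sorting Lgr5-GFP+ cells stained for EpCAM, CD45 and CD24. After recombination, cells of mice labelled Mll1+/- were thus also mutant for β-catenin and heterozygous for Mll1. No library from mice without the β-catenin allele or without a floxed Mll1 allele was compared here. Sorting on Lgr5-GFP does not select recombined cells, and the study describes unrecombined crypts beside mutant ones in mice labelled Mll1-/-. The share of recombined cells in each library was not measured here.

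Chloride secretion is the step by which crypt epithelium draws fluid into the lumen. NKCC1 sits in the basolateral membrane and loads the cell with chloride along the sodium gradient that the sodium-potassium ATPase maintains, and Atp1b1 is the β1 subunit of that pump. Chloride leaves through the apical channel CFTR when cyclic AMP rises, and potassium leaves through basolateral channels such as KCNQ1 with its β-subunit KCNE3, which keeps the membrane voltage favourable for chloride exit. WNK kinases such as WNK1 phosphorylate SPAK (encoded by *Stk39*) and OSR1 (encoded by *Oxsr1*), which in turn phosphorylate NKCC1 and switch it on. AQP4 is a basolateral water channel. In the mouse intestine *Slc12a2* is known as a gene of the crypt base.

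Promoters of the set are shown because Mll1 carries a CXXC domain, which binds DNA with unmethylated CpG, and CpG content is a property that the choice of the genes did not use. The 250 bases before the annotated start were taken from RefSeq (GRCm38.p6), which gave 7 windows for 6 of the 9 genes. Printed 5′ to 3′ on the strand of the gene, with each CpG in capitals, are windows free of annotated exons, for *Kcne3* and *Atp1b1*, whose groups were separate, and for *Cftr* and *Oxsr1*, whose groups overlapped. They lie at chr7:100178433-100178682 (plus strand, the second start of *Kcne3*), chr1:164458356-164458605 (minus strand, *Atp1b1*), chr6:18170437-18170686 (plus strand, *Cftr*) and chr9:119322428-119322677 (minus strand, *Oxsr1*).
Kcne3: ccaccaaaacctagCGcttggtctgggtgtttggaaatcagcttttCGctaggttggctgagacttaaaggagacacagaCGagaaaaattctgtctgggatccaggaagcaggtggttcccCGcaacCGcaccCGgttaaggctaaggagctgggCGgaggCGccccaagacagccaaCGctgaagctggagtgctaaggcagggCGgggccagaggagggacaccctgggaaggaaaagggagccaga
Atp1b1: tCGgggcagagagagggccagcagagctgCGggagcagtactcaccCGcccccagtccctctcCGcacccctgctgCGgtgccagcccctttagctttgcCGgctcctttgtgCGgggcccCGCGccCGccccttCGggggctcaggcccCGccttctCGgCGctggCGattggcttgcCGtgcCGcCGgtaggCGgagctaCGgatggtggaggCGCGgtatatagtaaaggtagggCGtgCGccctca
Cftr: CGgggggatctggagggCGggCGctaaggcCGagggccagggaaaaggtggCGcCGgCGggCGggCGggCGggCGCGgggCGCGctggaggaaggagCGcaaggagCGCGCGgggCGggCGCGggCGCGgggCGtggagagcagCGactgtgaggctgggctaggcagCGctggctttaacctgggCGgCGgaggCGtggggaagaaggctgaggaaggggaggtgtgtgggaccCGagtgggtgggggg
Oxsr1: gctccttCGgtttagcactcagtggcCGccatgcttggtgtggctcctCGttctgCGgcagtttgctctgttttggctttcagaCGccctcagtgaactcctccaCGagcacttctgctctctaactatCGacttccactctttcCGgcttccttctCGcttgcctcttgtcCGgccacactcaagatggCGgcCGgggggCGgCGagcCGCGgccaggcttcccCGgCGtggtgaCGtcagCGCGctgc
The windows held 10 CpG for *Kcne3*, 24 for *Atp1b1*, 30 for *Cftr* and 21 for *Oxsr1*, beside a median of 6 over the 32851 windows of all genes. Those windows were not limited to genes expressed in these cells, as the 9 genes are, and no comparison with expressed genes alone was made. The windows of *Stk39* and *Wnk1* and that of the first start of *Kcne3* held 43, 26 and 3 CpG. The window of *Stk39*, which lies within annotated GENCODE exons over all its 250 bases, had the most CpG of the 6 genes and more than 99.3% of all windows. The groups of *Stk39* were separate, while those of *Wnk1* and *Cftr* overlapped. The second start of *Kcne3* exceeded 62.2% of windows and the first 29%. Both windows under 21 CpG belong to *Kcne3*, and no test of CpG content against expression was made. Motifs were searched on both strands: CTTTGA of TCF/LEF factors was found in 13.8% of all windows, AGATAA of GATA factors in 9.99%, TGTTTAC of FOXA factors in 3.17% and the palindrome CAGCTG of ATOH1 in 13%. None of these letters were in the 7 windows of the set.

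Depth lay between 14468751 and 16847793 counts on genes per library, and a floor of 3 counts corresponded to 0.162 to 0.241 CPM (read counts relative to the TMM-scaled total of a library). All 9 genes passed the filter on low counts, as did 16445 genes in total. Mitochondrial genes held 17.1 to 27.1% of the counts in libraries labelled Mll1-/- and 23.3 to 30.1% in libraries labelled Mll1+/-. *Kmt2a* was at 53.5 to 78.5 CPM in the former and at 48.9 to 64.9 CPM in the latter, so its counts were not lower in the libraries labelled Mll1-/-. Counts over the whole gene include exons outside the deleted part, and unrecombined cells can add to them, so they do not check the genotype label. Every direction given here follows the labels. J_7135 stood apart from the others, with a highest rank correlation to any other library of 0.909 against at least 0.947 for the rest, and the fit was repeated without it. The library numbers in the column names of the counts fell into runs of 2 libraries per genotype, the first with J_7075, J_7079, J_7096 and J_7100. A library run here is only such a stretch of numbers. Whether it stands for preparation or sequencing is not stated in the labels. The log2 difference of Y-linked transcripts over *Xist* was 6.34, 4.48, -2.87 and -11.7 in J_7075, J_7096, J_7135 and J_7136. It was -11.0, -11.3, 8.78 and -10.5 in J_7079, J_7100, J_7134 and J_7139. The balance thus differed between the groups, and J_7135 lay between the libraries high in Y-linked transcripts and those high in *Xist*. Sex is not labelled, and the reason for the value of J_7135 was not tested.

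*Slc12a2* (ENSMUSG00000024597, chromosome 18 of mm10) stood at place 185 of 16439 genes by its mean CPM per kilobase of exon in the libraries labelled Mll1+/-. Of the libraries labelled Mll1+/-, J_7079 and J_7100 of the first run held it at 2919.5 and 2762 CPM, and J_7134 and J_7139 of the second at 2155 and 2545 CPM. Of those labelled Mll1-/-, J_7075 and J_7096 held it at 1740.2 and 1588 CPM, and J_7135 and J_7136 at 1176 and 1168 CPM. Each of the 4 latter values lay under each of the 4 former, and the second run was lower than the first in both genotypes. The means were 1418 ± 291 and 2596 ± 331 CPM (SD, n = 4 libraries per genotype), a log2 fold change of -0.87 ± 0.16 (SE; 95% confidence interval -1.23 to -0.52), which is 54.6% of the Mll1+/- level. In bulk libraries such as these, fewer cells of a type and less RNA per cell cannot be told apart. In edgeR's quasi-likelihood test across all genes the adjusted p was 0.15, which missed the threshold of 0.1. Within runs the log2 difference was -0.77 (first) and -0.999 (second), and the fit without J_7135 gave -0.79. DESeq2, the test that the study used, gave an adjusted p of 3.19e-04 on the same counts, and the other alternatives ranged up to 0.37.

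**Figure D1:**
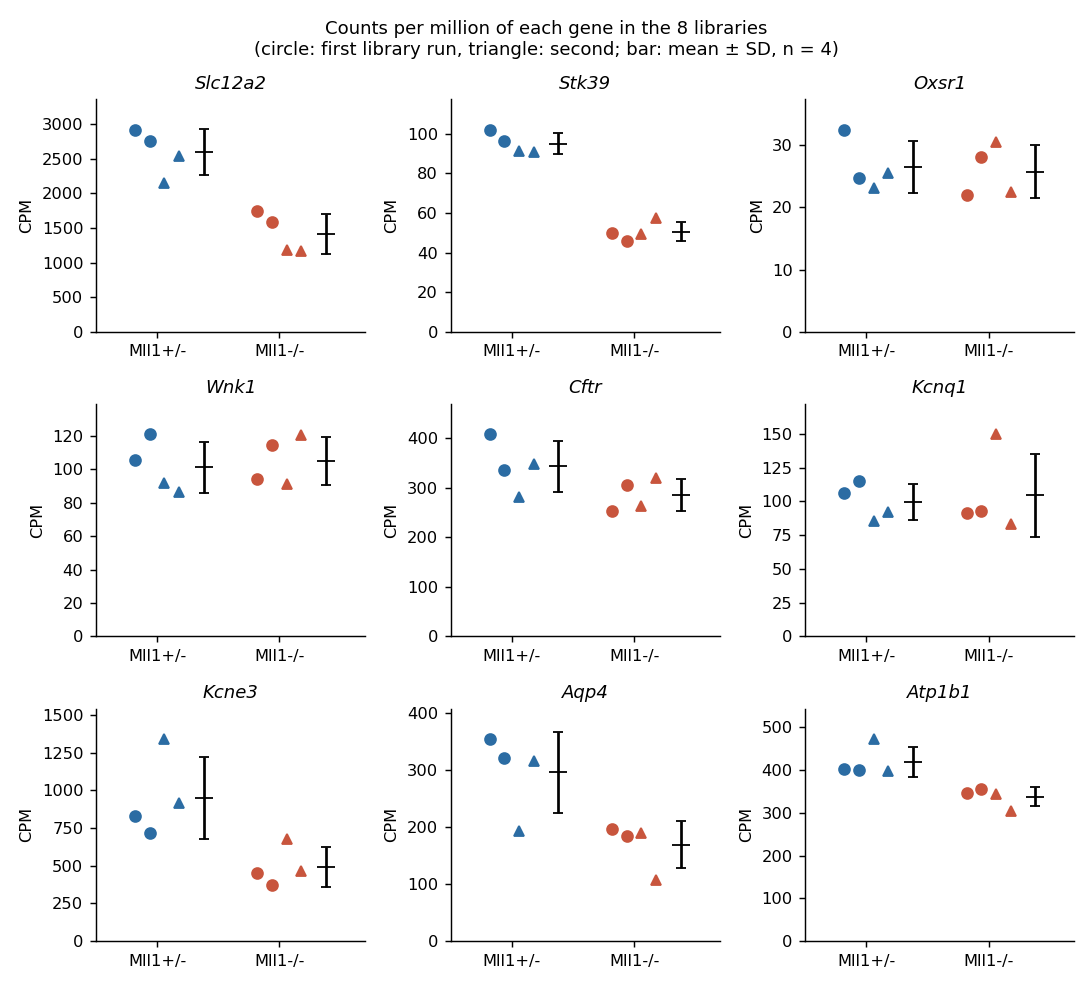
CPM (y axes, from 0) of each of the 9 genes in the 4 libraries labelled Mll1+/- (blue) and the 4 labelled Mll1-/- (red), with circles for the first library run, triangles for the second, and the mean ± SD beside the points. *Slc12a2*, *Stk39*, *Kcne3* and *Atp1b1* do not overlap between genotypes, and the point of *Kcnq1* at 149.6 CPM is J_7135.

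*Stk39* (ENSMUSG00000027030, chromosome 2 of mm10 from 68210445 to 68472268, minus strand) encodes SPAK, the kinase that acts directly on NKCC1. It was at 102, 96.5, 91.0 and 90.5 CPM in J_7079, J_7100, J_7134 and J_7139 and at 49.7, 46.0, 49.2 and 57.3 CPM in J_7075, J_7096, J_7135 and J_7136. The gap between the groups (33.2 CPM) was wider than the range within either group. Its coefficient of variation was 9.40% in libraries labelled Mll1-/- and 5.66% in libraries labelled Mll1+/-, beside medians of 32.0 and 23.7% over all genes tested. The medians include genes with few counts, and *Atp1b1* (6.70 and 8.63%) and *Cftr* (11.2 and 15.0%) were also below them. *Kcne3* (26.8 and 28.6%) and *Aqp4* (24.6 and 24.1%) exceeded the median of the libraries labelled Mll1+/-. *Stk39* fell by 0.91 ± 0.12 on the log2 scale (SE; 95% confidence interval -1.19 to -0.63), from 94.9 ± 5.38 to 50.6 ± 4.76 CPM (SD, n = 4 libraries per genotype), with an adjusted p of 0.092 in edgeR's test. Within runs the log2 difference was -1.05 (first) and -0.77 (second), and the fit without J_7135 gave -0.90. The adjusted p passed 0.1 by little: it was 0.11 with the library run as a term and 0.20 with the balance of Y-linked transcripts and *Xist* as a term. It was also above 0.1 when any single library other than J_7135 was left out, whereas it was 0.051 without J_7135. *Stk39* was the only 1 of the 9 genes past the threshold, beside 0.0851% of all genes tested (0.0365% lower and 0.0486% higher), and nothing is read from this count, since the set was chosen with it known.

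The other kinases of the cascade differed from *Stk39*. *Oxsr1* (ENSMUSG00000036737, chromosome 9 from 119238432 to 119322427, minus strand) encodes OSR1, the near relative of SPAK that phosphorylates the same transporters. It was at 32.4, 24.7, 23.1 and 25.5 CPM in J_7079, J_7100, J_7134 and J_7139 and at 21.9, 28.0, 30.5 and 22.5 CPM in J_7075, J_7096, J_7135 and J_7136. The groups overlapped, and the log2 fold change was -0.04 ± 0.19 (SE; 95% confidence interval -0.47 to 0.39). *Wnk1* (ENSMUSG00000045962, chromosome 6 from 119923969 to 120038672, minus strand), the upstream kinase, was at 105, 121, 91.9 and 86.6 CPM in J_7079, J_7100, J_7134 and J_7139 and at 94.1, 114.5, 91.5 and 120.4 CPM in J_7075, J_7096, J_7135 and J_7136. These groups overlapped as well, with a log2 fold change of 0.05 ± 0.15 (95% confidence interval -0.29 to 0.40). The intervals of *Oxsr1* and *Wnk1* leave room for a change either way. The fits without J_7135 gave -0.13 and 0.12 for them, and their direction depended on which library was left out. Per kilobase of exon, *Stk39* stood at 3.92 ± 0.403 times *Oxsr1* in libraries labelled Mll1+/- and at 2.18 ± 0.503 times in libraries labelled Mll1-/- (SD, n = 4 each), with ranges of 3.39 to 4.25 and 1.74 to 2.75 that did not overlap. The ratio of *Slc12a2* to *Stk39* was 20.7 ± 1.83 (18.0 to 21.8) and 21.6 ± 5.63 (15.5 to 26.6) in the same groups. In the libraries labelled Mll1-/- it was 26.6 and 26.2 in J_7075 and J_7096 and 18.2 and 15.5 in J_7135 and J_7136. The like means thus do not show a fixed proportion.

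Of the 3 channel genes for chloride and potassium exit among the 9, *Kcne3* (ENSMUSG00000035165, chromosome 7 from 100176502 to 100184869, plus strand) was the one with separate groups. This β-subunit holds KCNQ1 open at resting voltage. *Kcne3* was at 826, 719.8, 1342 and 919 CPM in J_7079, J_7100, J_7134 and J_7139 and at 451, 368, 676 and 463 CPM in J_7075, J_7096, J_7135 and J_7136. J_7134 was the highest of its group and J_7135 the highest of the other, and the closest libraries of the groups, J_7135 and J_7100, were 43.4 CPM apart. The means were 490 ± 131 and 952 ± 272 CPM, a log2 fold change of -0.96 ± 0.23 (SE; 95% confidence interval -1.48 to -0.44) with an adjusted p of 0.25 in edgeR's test. Within runs the log2 difference was -0.92 (first) and -0.99 (second), and the fit without J_7135 gave -1.16.

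Its partner *Kcnq1* (ENSMUSG00000009545, chromosome 7 from 143106362 to 143427042, plus strand), the pore subunit, had overlapping groups. It was at 106, 115, 85.3 and 92.2 CPM in J_7079, J_7100, J_7134 and J_7139 and at 91.7, 92.9, 149.6 and 83.3 CPM in J_7075, J_7096, J_7135 and J_7136. The log2 fold change was 0.07 ± 0.20 (SE; 95% confidence interval -0.38 to 0.52), and J_7135 decided its sign, since the fit without that library gave -0.16. Of the exonic bases of *Kcnq1*, 2.96% are shared with the antisense gene *Kcnq1ot1*, and the counting did not use strand. The ratio of *Kcne3* to *Kcnq1* per kilobase was 22.9 ± 9.56 in libraries labelled Mll1+/- (14.4 to 36.2) and 10.9 ± 1.54 in libraries labelled Mll1-/- (9.12 to 12.8), so the 2 subunit genes were not measured in a fixed proportion.

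*Cftr* (ENSMUSG00000041301, chromosome 6 from 18170687 to 18322768, plus strand), the apical chloride channel, was at 408, 336, 282 and 348 CPM in J_7079, J_7100, J_7134 and J_7139. In J_7075, J_7096, J_7135 and J_7136 it was at 253, 305, 264 and 320.2 CPM. The groups overlapped, and the log2 fold change was -0.27 ± 0.14 (SE; 95% confidence interval -0.57 to 0.04), or -0.23 without J_7135. The level of *Slc12a2* over that of *Cftr*, per kilobase, was 9.03 ± 0.560 in libraries labelled Mll1+/- (8.52 to 9.79) and 6.01 ± 1.63 in libraries labelled Mll1-/- (4.34 to 8.18).

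*Aqp4* (ENSMUSG00000024411, chromosome 18) was at 354, 321, 192 and 316 CPM in J_7079, J_7100, J_7134 and J_7139 and at 195, 184, 189 and 107 CPM in J_7075, J_7096, J_7135 and J_7136. J_7134 lay 3.55 CPM under J_7075, so the groups overlapped by this pair alone. The log2 fold change was -0.81 ± 0.24 (SE; 95% confidence interval -1.34 to -0.28; adjusted p = 0.36 in edgeR's test) and its values within runs were -0.83 (first) and -0.79 (second). The fit without J_7135 gave -0.87 for *Aqp4*. *Atp1b1* (ENSMUSG00000026576, chromosome 1 from 164437109 to 164458355, minus strand) was at 403, 401, 473 and 399 CPM in J_7079, J_7100, J_7134 and J_7139 and at 346, 356, 344 and 305 CPM in J_7075, J_7096, J_7135 and J_7136. Its groups were separate but close, with a log2 fold change of -0.31 ± 0.10 (SE; 95% confidence interval -0.54 to -0.08; adjusted p = 0.43), or -0.32 without J_7135. The exons of *Atp1b1* share 18.7% of their bases with *Nme7*. Per kilobase of the bases it does not share, its mean level over 8 libraries was 151 CPM.

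Side by side, 7 of the 9 genes had a log2 fold change under 0, beside 49.2% of all genes tested. Of the 9, 6 were lower in both runs, and the share of all genes that were so was not computed. The groups of 4 genes did not overlap, with the libraries labelled Mll1-/- below in each, and of all genes tested 2.94% were separate in that direction, 3.34% in the other and 6.28% in either. An unadjusted p under 0.05 was reached by 5 of the 9 with edgeR, beside 9.15% of all genes, and 4 of the 9 (*Slc12a2*, *Stk39*, *Kcne3* and *Aqp4*) had an adjusted p under 0.1 with DESeq2, beside 2.47% of all genes in either direction and 0.985% lower. The median log2 fold change of the 9 was -0.31, and that of all genes tested was 0.0076. These counts rest on the comparison with which the genes were chosen.

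**Figure D2:**
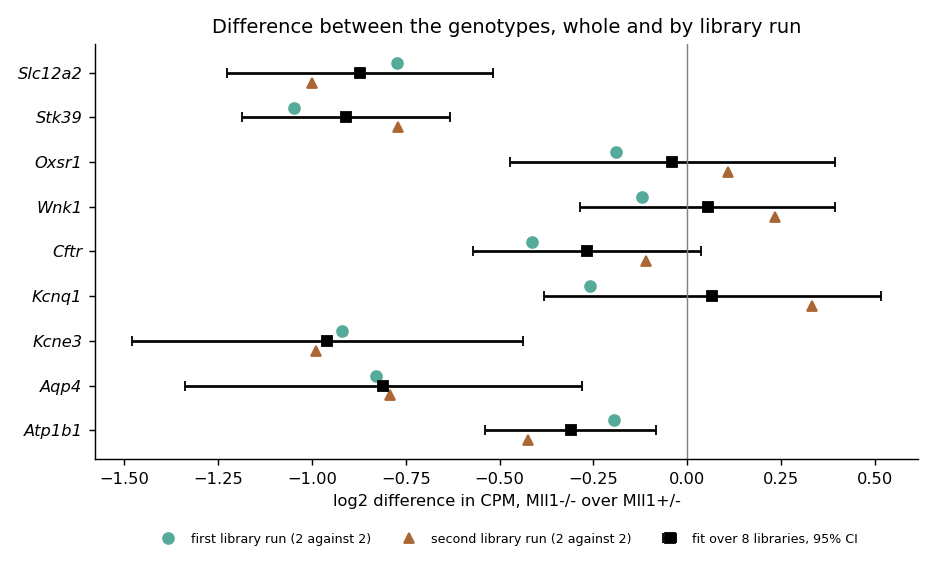
Log2 difference in CPM of Mll1-/- over Mll1+/- (x axis) for the 9 genes, with the edgeR fit over 8 libraries and its 95% confidence interval (black squares and bars), and with the difference within the first (circles) and second (triangles) library run, 2 libraries per genotype each. The intervals of *Slc12a2*, *Stk39*, *Kcne3*, *Aqp4* and *Atp1b1* lie below 0, and the runs of *Oxsr1*, *Wnk1* and *Kcnq1* fall on opposite sides of it.

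The levels of the genes relative to each other were not used to choose them, though levels pooled over 8 libraries carry the genotype differences that were known. Per kilobase of exon and over all 8 libraries, *Kcne3* came first at 405 ± 178 CPM per kilobase (SD, n = 8) and *Slc12a2* second at 308 ± 106, followed by *Atp1b1* at 123 ± 16.8. *Aqp4* was at 45.7 ± 17.1, *Cftr* at 40.5 ± 6.49, *Kcnq1* at 24.9 ± 5.36 and *Stk39* at 14.7 ± 4.88 CPM per kilobase. *Oxsr1* at 4.87 ± 0.726 and *Wnk1* at 4.52 ± 0.612 CPM per kilobase came last. Thus the transporter and the potassium channel β-subunit stood above 98.6 and 98.9% of the genes tested, and *Oxsr1* and *Wnk1* above 56.0 and 54.2%. Of the 8 pairs of neighbours in this order, 5 differed within libraries by an exact two-sided permutation test of the signs of the log2 differences, adjusted over the 8 pairs. The same values set the order and the pairs, so the test describes steps in these libraries and not an order fixed beforehand. The 4 steps from *Slc12a2* to *Atp1b1* (2.39-fold), *Atp1b1* to *Aqp4* (2.85-fold), *Kcnq1* to *Stk39* (1.76-fold) and *Stk39* to *Oxsr1* (2.89-fold) went the same way in 8 of 8 libraries, with an exact p of 0.0078, the smallest that 8 libraries can give, and an adjusted p of 0.016. These folds pool the genotypes: the log2 difference of *Kcnq1* over *Stk39* was 0.34 in libraries labelled Mll1+/- and 1.29 in libraries labelled Mll1-/-, that of *Stk39* over *Oxsr1* was 1.97 and 1.10, that of *Slc12a2* over *Atp1b1* 1.54 and 0.97, and that of *Atp1b1* over *Aqp4* 1.26 and 1.76. *Cftr* exceeded *Kcnq1* by 1.64-fold in 7 of 8 libraries (exact permutation adjusted p = 0.025). No difference was shown between *Kcne3* and *Slc12a2* (1.28-fold, higher in 5 of 8 libraries, exact permutation adjusted p = 0.16), between *Aqp4* and *Cftr* (1.07-fold, 6 of 8, adjusted p = 0.62 by the same exact test) or between *Oxsr1* and *Wnk1* (1.08-fold, 5 of 8, adjusted p = 0.39 by the same exact test). *Kcne3* exceeded *Slc12a2* in every library of the second run and, of the first run, in J_7079 alone. The test did not take the run into account. In the libraries labelled Mll1-/- alone, *Cftr* came above *Aqp4*. The exonic length of *Wnk1* in the count table (22.8 kilobases) is that of all its transcripts together. With the length of the longest protein-coding transcript instead, *Wnk1* was at 9.11 and *Oxsr1* at 5.61 CPM per kilobase and *Cftr* at 49.9 and *Aqp4* at 46.0, so both of these pairs changed places.

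**Figure D3:**
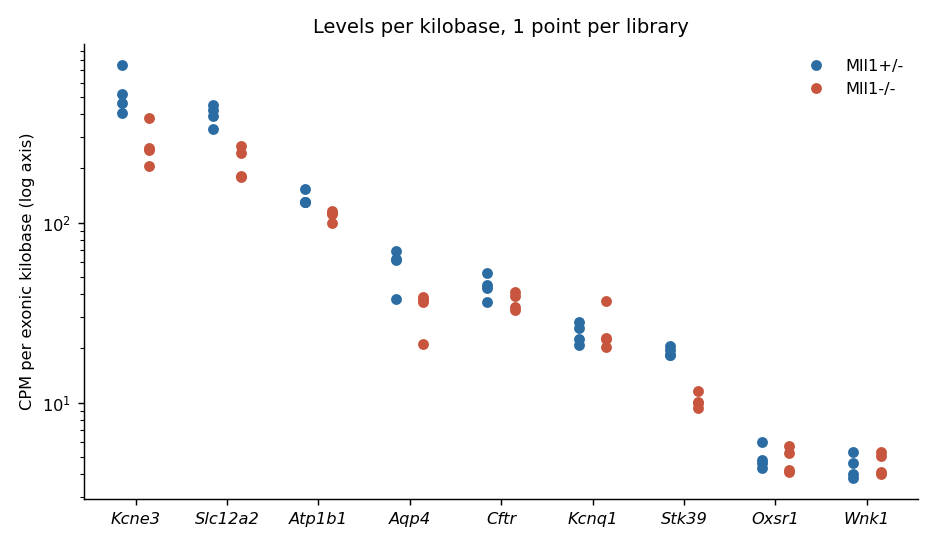
CPM per exonic kilobase (y axis, log scale) of the 9 genes in the order of their means over 8 libraries, 1 point per library (blue, Mll1+/-, red, Mll1-/-). The genes span from 405 CPM per kilobase for *Kcne3* to 4.52 for *Wnk1*, and *Oxsr1* and *Wnk1* lie at the same height.

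Among all genes, those whose log2 CPM followed *Slc12a2* most closely over the 8 libraries were *Ccbe1*, *Tppp*, *Cps1*, *Tnfsf10* and *Dctn6* (Pearson's r from 0.982 to 0.960 among 16438 genes, as a description). *Cps1*, which encodes a urea cycle enzyme, averaged 1458 CPM, and *Ccbe1* and *Tppp* averaged 4.27 and 3.43 CPM. Of the other members, *Aqp4* came closest (r = 0.887), then *Stk39* (0.863), *Atp1b1* (0.761), *Cftr* (0.630) and *Kcne3* (0.562). After the genotype means were taken off, *Aqp4* still deviated with *Slc12a2* (0.722), *Stk39* did not (-0.190), and *Kcne3* deviated the other way (-0.735). *Kcne3* was higher in the second run than in the first in both genotypes, and *Slc12a2* was lower. For *Stk39* the closest genes were *Agr3*, *Ift20*, *Metrnl*, *4930511M06Rik* and *Gm43167* (r from 0.969 to 0.956). These points share the difference between genotypes and the library runs.

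The pathway around the 9 genes was read from lists of 122 genes, of which 83 passed the filter. *Stk39* was the only 1 past the threshold of edgeR's test, beside 0.0851% of all genes. Without the 9 genes, 74 remained, with none past the threshold by edgeR and 4 past it by DESeq2 (*Klhl2*, *Kcnn4*, *Slc9a3* and *Guca2a*), beside 2.47% of all genes by DESeq2. At an unadjusted p under 0.05 by edgeR, 3 of the 74 were lower and 9 were higher, beside 3.75 and 5.4% of all genes, and their median log2 fold change was -0.02. Of the other cation-chloride cotransporters, the potassium-chloride cotransporter gene *Slc12a7* was at 42.7 CPM in libraries labelled Mll1-/- and at 37.4 CPM in libraries labelled Mll1+/-, and *Slc12a1*, the kidney relative of NKCC1, was under the filter.

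Of the WNK-SPAK/OSR1 kinases and regulators, 19 of 20 were tested, and 3 (*Stk39* among them) were lower and 1 higher at an unadjusted p under 0.05, beside 3.75 and 5.4% of all genes. *Klhl2*, a substrate adaptor of the ubiquitin ligase that degrades WNK kinases, had a log2 fold change of -0.60 ± 0.19 (adjusted p = 0.40), at 13.5 to 17.3 CPM in libraries labelled Mll1-/- and 19.5 to 26.5 CPM in libraries labelled Mll1+/-. *Wnk4*, another WNK kinase, had one of 1.03 ± 0.38 (adjusted p = 0.48), at 10.2 to 23.0 and 5.41 to 11.5 CPM, with overlap. *Stk26*, a kinase of the related MST family, had a log2 fold change of -2.23 ± 0.75 (adjusted p = 0.45) at 5.91 CPM or less in every library. *Rbx1*, the RING subunit of cullin ligases, had the highest level per kilobase of this list and a log2 fold change of -0.13.

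Among the channel lists, the calcium-activated potassium channel gene *Kcnn4* had a value opposite to *Kcne3*. It was at 31.0, 27.7, 30.8 and 26.1 CPM in J_7079, J_7100, J_7134 and J_7139 and at 40.7, 37.9, 57.9 and 44.5 CPM in J_7075, J_7096, J_7135 and J_7136. All libraries labelled Mll1-/- lay above the others, with a log2 fold change of 0.65 ± 0.18 (adjusted p = 0.33 by edgeR and 0.039 by DESeq2). Other β-subunits of KCNQ1, *Kcne1*, *Kcne2* and *Kcne4*, were under the filter. *Slc4a2*, a chloride-bicarbonate exchanger, had a log2 fold change of 0.62 ± 0.26 (adjusted p = 0.52), and it was the only 1 of 17 tested chloride and bicarbonate genes with an unadjusted p under 0.05, beside 9.15% of all genes. Without J_7135 the unadjusted p of *Slc4a2* was 0.076 and that of *Wnk4* was 0.053 in edgeR's fit. Of 11 aquaporins, 3 were tested, and of 8 genes of sodium uptake, 5 were tested. In the latter list *Slc9a3*, the apical sodium-proton exchanger NHE3, was at 8.32, 2.90, 3.14 and 7.29 CPM in J_7075, J_7096, J_7135 and J_7136 and at 10.2, 18.9, 33.4 and 12.01 CPM in J_7079, J_7100, J_7134 and J_7139. Its log2 fold change was -1.78 ± 0.49 (adjusted p = 0.33 by edgeR and 0.017 by DESeq2), and *Slc5a1*, the sodium-glucose cotransporter with the highest level of this list, had one of -0.34.

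The secretagogue receptors and cyclic nucleotide signalling genes had a median log2 fold change of 0.35 over 22 tested of 26, with 6 higher and 0 lower at an unadjusted p under 0.05, beside 5.4% higher and 3.75% lower of all genes, and none with an adjusted p under 0.1 by edgeR. In the fit without J_7135 there were 3 (*Vipr1*, *Guca2a* and *Abcc4*), beside 4.73% higher of all genes. *Abcc4*, which encodes a cyclic nucleotide exporter, had an adjusted p of 0.041 by edgeR in that fit, with a log2 fold change of 2.21, and was not among the 6. The library left out held it at 0.054 CPM, and the other libraries labelled Mll1-/- at 20.8 to 26.9 CPM. Over all 8 libraries its groups overlapped, with a log2 fold change of 1.80 ± 0.99 (adjusted p = 0.63 by edgeR). *Guca2a* encodes guanylin, the peptide that opens CFTR through guanylate cyclase C. It was at 13.3, 32.4, 11.5 and 21.5 CPM in J_7079, J_7100, J_7134 and J_7139 and at 49.7, 75.0, 63.8 and 103.6 CPM in J_7075, J_7096, J_7135 and J_7136. The groups did not overlap, with a log2 fold change of 1.89 ± 0.36 (adjusted p = 0.17 by edgeR and 2.33e-05 by DESeq2), and guanylin is also known as a product of goblet cells. The other 5 were the receptor gene *Vipr1* (0.55), the adenylate cyclase gene *Adcy9* (1.48), the protein kinase A regulatory subunits *Prkar1a* (0.42) and *Prkar2b* (2.26) and the phosphodiesterase gene *Pde4b* (0.66), with log2 fold changes in brackets. *Prkar2b* was at 20.6 CPM in J_7135 and at 1.74 to 4.07 CPM in the other libraries labelled Mll1-/-, and the fit without J_7135 gave 1.04. Its log2 difference was -0.0030 within the first run and 3.93 within the second. That of *Adcy9* was -0.24 and 2.81, with 1.01 in the fit without J_7135, where neither gene had an unadjusted p under 0.05 in edgeR's test.

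**Figure D4:**
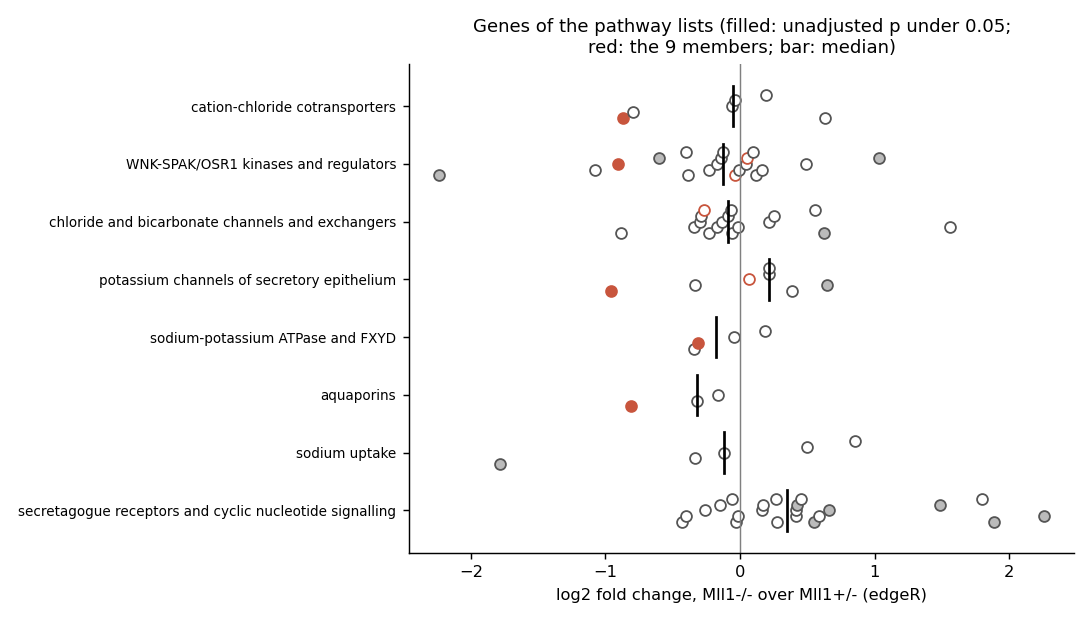
Log2 fold change of Mll1-/- over Mll1+/- (x axis) for each tested gene of 8 pathway lists (rows), with the 9 genes in red, other genes in grey, filled points at an unadjusted p under 0.05 and a bar at the median of each list. The 6 filled points of the secretagogue list lie above 0, and the filled red points lie below 0.

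Markers of cell types were read in the same libraries. The 16 stem cell markers summed to 10911 to 17613 CPM in libraries labelled Mll1-/- and to 22211 to 26150.0 CPM in libraries labelled Mll1+/-, without overlap. Most of this sum was *Olfm4* (8080 to 14429 and 19281 to 22949 CPM), while *Lgr5*, the gene that drives the sorted GFP, was at 232 to 277 and 215 to 308 CPM. Of the 16, 9 were fitted lower and 7 higher, with none called. The 10 goblet cell markers summed to 688 to 1220 CPM in libraries labelled Mll1-/- and 610 to 806 CPM in libraries labelled Mll1+/-, with 8 of 10 fitted higher. The 8 Paneth cell markers summed to 1559 to 5054 and 3106 to 4846 CPM. Of these 8, 6 were fitted lower and 2 higher, with none called and a median log2 fold change of -0.87. Their sum depended on *Pla2g2a*, which varied within both groups (113 to 2513 and 106 to 1181 CPM) and was fitted higher. Of 10 enterocyte markers, 8 were tested and all 8 were fitted lower (403 to 694 and 642 to 740.2 CPM summed). The 6 epithelial markers summed to 3180 to 3761 CPM in libraries labelled Mll1-/- and to 2512 to 2759 CPM in libraries labelled Mll1+/-. Among them *Krt8* (376 to 623 and 303 to 365 CPM) and *Vil1* (148 to 199 and 120 to 146 CPM) were separate. *Epcam* (1286 to 1697 and 1255 to 1472 CPM), *Krt18* (644 to 1271 and 439 to 650 CPM), *Cdh1* and *Cdx2* overlapped. The enteroendocrine markers summed to 7.29 to 9.41 and 9.71 to 72.6 CPM and the tuft cell markers to 3.09 to 10.3 and 2.57 to 4.26 CPM, with *Il25* at 0 in every library. Immune markers summed to 2.22 to 10.2 and 8.79 to 19.4 CPM, with *Ptprc* (CD45) under the filter, and stromal and endothelial markers to 5.73 to 9.85 and 5.84 to 8.74 CPM. The stem, epithelial and, by a narrow gap (9.41 against 9.71 CPM), enteroendocrine sums thus did not overlap between genotypes. Nor did 4 of the 9 genes. Of the 74 other pathway genes tested, 3 were separate and lower (*Klhl2*, *Stk26* and *Slc9a3*) and 3 separate and higher (*Kcnn4*, *Vipr1* and *Guca2a*). Of all genes tested, 2.94% were separate and lower, 3.34% separate and higher and 6.28% either. No such share was computed for the marker sums. The part of cell make-up and mitochondrial share in these differences was not tested.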

How the data were processed

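The authors prepared Smart-seq2 libraries with amplified cDNA from small pools of sorted Lgr5-GFP+ cells of 8 mice. The part of this small input in the spread between libraries was not tested. They aligned reads to mm10 with GSNAP and counted uniquely mapped reads on Ensembl 92 genes with featureCounts 1.6.3, with a mapping quality of at least 1 and without strand. Versions are those of the submitters' processing notes. The authors deposited these raw counts per gene, with the exonic length in bases as another column, and a table of signal, the same counts over a size factor per library (0.811 to 1.17, recovered within rounding for 25485 genes), which also holds their own fold changes and p-values, not used here. Counts were used for all tests, and the signal table for gene symbols. Replicates were mice, and groups and animal numbers came from the labels. Library runs were read from a gap in the library numbers of the count columns and not from a label.

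The 9 genes and the gene lists were chosen with earlier results of these data known. Low genes were removed with filterByExpr (minimum count 10, minimum total 15), and the rest were scaled with TMM and fitted with edgeR 4.0.16 (robust quasi-likelihood F test, two-sided, genotype as the only term, Benjamini-Hochberg over 16445 genes, threshold 0.1) in R 4.3.3. The study's methods apply this threshold to a DESeq2 test, so the threshold is shared with the study and the main test is not. SE was obtained from the log2 fold change and F, and intervals from the t distribution. Log2 CPM used a prior count of 2. Between 14468751 and 16847793 counts per library gave a floor of 3 counts at 0.162 to 0.241 CPM; reads carry no molecular identifiers, so this floor covers counting error only. Neighbours in the order of levels, which the same values set, were compared with an exact sign-flip permutation test. Beside the 9 genes, the text names *Kmt2a*, pathway genes with an unadjusted p under 0.05 or the highest level per kilobase of their list, and the 5 genes most correlated with *Slc12a2* and with *Stk39*. *Abcc4*, *Slc12a1*, *Slc12a7* and genes under the filter were named after their values were seen. Some genes of the lists are not reported here. On simulated data (15875 genes, 200 changed), edgeR found 20% of changes of 1 and 67% of changes of 2 on the log2 scale, and 10.3% of 97 calls were wrong. Alternatives were DESeq2 1.42.0 (Wald test, no prior), limma-voom 3.58.1 with quality weights, other scalings and filters, the library run or the balance of Y-linked transcripts and *Xist* as a term, and each library left out. The alternative lengths for the level order were added after seeing the data. Figures were drawn with matplotlib 3.10.9.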

Additional observations from a re-analysis of the deposited data

Results flagged for a closer look

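Of 18 groups (9 genes in 2 genotypes), 3 held a library whose gap to its nearest neighbour took up an unusual part of the range of its group, and chance alone gives such a gap in about 1 of 20 groups. *Kcnq1* in J_7135, labelled Mll1-/-, was at 149.6 CPM, and its gap was 0.86 of the range. *Aqp4* in J_7136, labelled Mll1-/-, was at 107 CPM, with a gap of 0.87 of the range. *Atp1b1* in J_7134, labelled Mll1+/-, was at 473 CPM, with a gap of 0.95 of the range.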

How the results depend on the processing

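Of the alternatives to edgeR's test on TMM-scaled counts, 14 genes past the threshold became 14 with DESeq2 size factors and 8 with upper-quartile factors, 406 with the DESeq2 Wald test, 103 with limma-voom, 47 without a filter, 34 with at least 10 counts in every library, and 0 with the library run as a term or with Y-linked transcripts minus *Xist* as a term, where 1642 and 1624 genes had an unadjusted p under 0.05. Leaving out 1 library gave 0 to 45 genes: 0 for 6 of the 8 libraries, 2 without J_7075 and 45 without J_7135. Of the pathway genes, 1 was past the threshold, and 8 were with DESeq2, 4 with limma-voom, 3 without a filter, 3 with at least 10 counts in every library, 0 with either term, and 0 to 2 with 1 library left out. *Slc12a2* passed the threshold with DESeq2 (-0.87, adjusted p = 3.19e-04), limma-voom (-0.78, 0.060), no filter (-0.87, 0.070) and at least 10 counts in every library (-0.87, 0.085), and it ranged from -0.99 to -0.79 with 1 library left out. *Kcne3* passed with DESeq2 (-0.95) and limma-voom (-1.05) and ranged from -1.16 to -0.75, and *Aqp4* passed with DESeq2 (-0.80) and ranged from -0.97 to -0.64. *Stk39* no longer passed with the library run (-0.91) or Y-linked transcripts minus *Xist* (-0.87) as a term, or in 7 of 8 fits with 1 library left out (-0.97 to -0.87, with -0.90, -0.93 and -0.93 without J_7100, J_7134 and J_7139). *Cftr* ranged from -0.35 to -0.17 and *Atp1b1* from -0.34 to -0.25 with 1 library left out. Changes of sign came in *Kcnq1* with limma-voom (-0.12) and with 1 library left out (-0.16 to 0.16, of which -0.0018 without J_7134 and -0.16 without J_7135), in *Oxsr1* (-0.13 to 0.073, of which 0.073, 0.024 and 0.022 without J_7079, J_7075 and J_7136) and in *Wnk1* (-0.016 to 0.15, of which -0.016 without J_7139 and without J_7136). The cause of these shifts was not tested. The order of levels kept 7 or 8 of its 8 neighbour pairs under the alternatives other than length and 6 with the longest coding transcript. No paired analysis was possible because the animal numbers in the labels are not shared between the genotypes and the replicate numbers only name libraries in order.

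With 4 libraries per genotype and a common biological coefficient of variation of 0.435, a p above the threshold does not show that a gene did not differ.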
